A study of Arabidopsis thaliana with 12 samples.

Results

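Among the transcripts of Xyl-grown *A. thaliana* cells, AT3G15450, *BT5* (AT4G37610), *BAM9* (AT5G18670) and *J8* (AT1G80920) form a small set of carbon-starvation marker genes, here 4 genes with 1 probe set each of 22746 on the array. They are members of a table of 290 genes selected on these same arrays by the difference between a sugar and Xyl. AT3G15450 was placed there by Glc and the other 3 genes by Suc, so the sugar to Xyl differences below are a description and carry no p-value. The platform's annotation named the probe set of AT3G15450 (258402_at). The probe sets of *BT5* (253061_at), *BAM9* (250007_at) and *J8* (261901_at) were found by their ratios of log2 values, sugar to Xyl, which differed from the listed ratios of the gene by no more than 4.65e-07, while the next best probe set differed by at least 0.0101.

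The 12 arrays (Affymetrix ATH1, 1 colour) measured total RNA of a habituated cell suspension culture, kept in the dark in hormone-free medium for 7 d with 87 mM Xyl as sole carbon source. Cells then received Fru, Glc, Suc or Xyl for 1 h, each at 1 mM and each with 3 replicates. Xyl was the control, and all groups share the line, the growth on Xyl and the dark. A culture of this kind is 1 line of undifferentiated cells and not a plant organ. Markers of leaf photosynthesis and of dividing cells had no named probe set, and the cell type was not checked with them.

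Values are log2 RMA values, the log2 signal of a probe set after background correction and quantile normalization between arrays, so that a difference of 1 is a doubling of signal. Array medians lay between 4.70 and 4.84. The 4 arrays of replicate 3 stood apart from the other 8 whatever the sugar, on a first principal component with 67.7% of the variance, and results that rest on them are given with and without them. Arrays with the same replicate number deviated together, so a second fit held the number as a block, and its values stand beside the calls they change. The number of arrays limits the precision, and with 3 arrays in each group the smallest p of an exact two-sided test is 0.1. Differences, with standard errors (SE), are from limma in 1 fit over the 4 groups. In RNA of a whole culture, fewer cells that hold a transcript and less transcript per cell cannot be told apart.

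Plant cells sense a shortage of carbon in part through the SnRK1 kinase, which is active at low energy and restrained by sugar phosphates such as trehalose 6-phosphate. Active SnRK1, with bZIP transcription factors among its targets, raises transcripts for the breakdown of amino acids, lipids and cell components and lowers those for growth. Starvation markers are transcripts that rise when carbon runs short and fall soon after sugar returns. The 4 genes encode unlike proteins. *BT5* encodes a BTB and TAZ domain protein, of a family that binds calmodulin and the CUL3 ubiquitin ligase. *BAM9* encodes a member of the β-amylase family that lacks starch-degrading activity of its own. *J8* encodes a short chloroplast J-protein, a class that stimulates Hsp70 chaperones. AT3G15450 encodes a protein of the aluminium-induced family with YGL and LRDR motifs, whose role is not settled.

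All 4 genes had their highest mean with Xyl, and every sugar mean lay below it. With Suc the arrays of all 4 genes lay wholly below the Xyl arrays, as they did for 3.26% of all probe sets. With Fru this held for 2 of the 4 genes, AT3G15450 and *BAM9* (2.63% of all probe sets), and with Glc for 2, AT3G15450 and *BT5* (2.59%). Since the genes were chosen by such differences, nothing is read from these counts.

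*BT5* showed the lowest level with Suc. Its log2 RMA value on replicates 1, 2 and 3 was 6.47, 6.57 and 6.95 with Xyl, 6.77, 5.52 and 5.92 with Fru, 6.21, 5.37 and 4.65 with Glc and 5.07, 5.23 and 4.60 with Suc. The Glc and Suc arrays all lay below the Xyl arrays, whereas the Fru group reached into the Xyl range with its replicate 1. Means were 6.67 ± 0.25 (SD, n = 3) with Xyl, 6.07 ± 0.64 with Fru, 5.41 ± 0.78 with Glc and 4.97 ± 0.33 with Suc. The log2 difference from Xyl was −0.60, −1.26 and −1.70 with Fru, Glc and Suc (SE 0.40, or 0.30 with the block). The signal was thus 1.51-fold, 2.39-fold and 3.24-fold lower. The Fru difference was −0.95 without replicate 1 of Fru and −0.32 without replicate 2 of Fru. Within every replicate, *BT5* had a lower value with Suc than with Glc and a lower value with Glc than with Fru.

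*BAM9* lay at least 1.02 below Xyl (log2) with each of the 3 sugars, with the largest SE of the 4 genes. Its log2 RMA value on replicates 1, 2 and 3 was 5.71, 6.54 and 6.71 with Xyl, 5.62, 5.64 and 4.65 with Fru, 4.85, 5.98 and 3.73 with Glc and 4.53, 5.40 and 4.14 with Suc. Replicate 3 was lowest within each of the sugars Fru, Glc and Suc and highest with Xyl, and only in the Glc group did an array (replicate 2) reach above the lowest Xyl array. Means were 6.32 ± 0.54 (SD, n = 3) with Xyl, 5.30 ± 0.56 with Fru, 4.85 ± 1.13 with Glc and 4.69 ± 0.64 with Suc. The log2 difference from Xyl was −1.02, −1.47 and −1.63 with Fru, Glc and Suc (SE 0.56, or 0.34 with the block). The signal was thus 2.03-fold, 2.77-fold and 3.10-fold lower. The Glc difference was −0.91 without replicate 3 of Glc. Ranked from the most negative difference among 22746 probe sets, the 4 genes stood between rank 1 (*BAM9*) and rank 29 (*J8*) with Glc, between rank 5 (*BT5*) and rank 25 (AT3G15450) with Suc and between rank 8 (*BAM9*) and rank 245 (*J8*) with Fru. Without replicate 3 the Glc difference of *BAM9* was −0.71, smaller than that of AT3G15450, −0.90.

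AT3G15450 differed from the other genes in its order, with the lowest mean with Glc. Its log2 RMA value on replicates 1, 2 and 3 was 10.03, 10.26 and 10.89 with Xyl, 9.87, 8.84 and 9.91 with Fru, 9.16, 9.31 and 8.56 with Glc and 9.13, 9.40 and 9.33 with Suc. Every array with another sugar lay below every Xyl array, and the Suc arrays were the most alike. Means were 10.39 ± 0.45 (SD, n = 3) with Xyl, 9.54 ± 0.61 with Fru, 9.01 ± 0.40 with Glc and 9.28 ± 0.14 with Suc. Suc minus Glc was −0.03, 0.08 and 0.77 (log2) in replicates 1, 2 and 3. That Glc had the lowest mean thus rested mostly on replicate 3. The log2 difference from Xyl was −0.85, −1.38 and −1.11 with Fru, Glc and Suc (SE 0.33, or 0.28 with the block). The signal was thus 1.80-fold, 2.60-fold and 2.15-fold lower. The Fru difference was −0.50 without replicate 2 of Fru.

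*J8* had the smallest differences of the 4 genes with Fru and Glc, but not with Suc. Its log2 RMA value on replicates 1, 2 and 3 was 7.22, 7.81 and 7.74 with Xyl, 7.74, 6.88 and 6.73 with Fru, 7.22, 7.35 and 5.86 with Glc and 6.45, 6.72 and 5.80 with Suc. Fru and Glc arrays overlapped the Xyl arrays, and the Suc arrays did not. Means were 7.59 ± 0.32 (SD, n = 3) with Xyl, 7.12 ± 0.54 with Fru, 6.81 ± 0.82 with Glc and 6.32 ± 0.47 with Suc. The log2 difference from Xyl was −0.47, −0.77 and −1.26 with Fru, Glc and Suc (SE 0.42, or 0.29 with the block). The signal was thus 1.38-fold, 1.71-fold and 2.40-fold lower. The Fru difference was −0.78 without replicate 1 and −0.28 without replicate 3 of Fru, and the Glc difference −0.30 without replicate 3 of Glc.

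**Figure D1:**
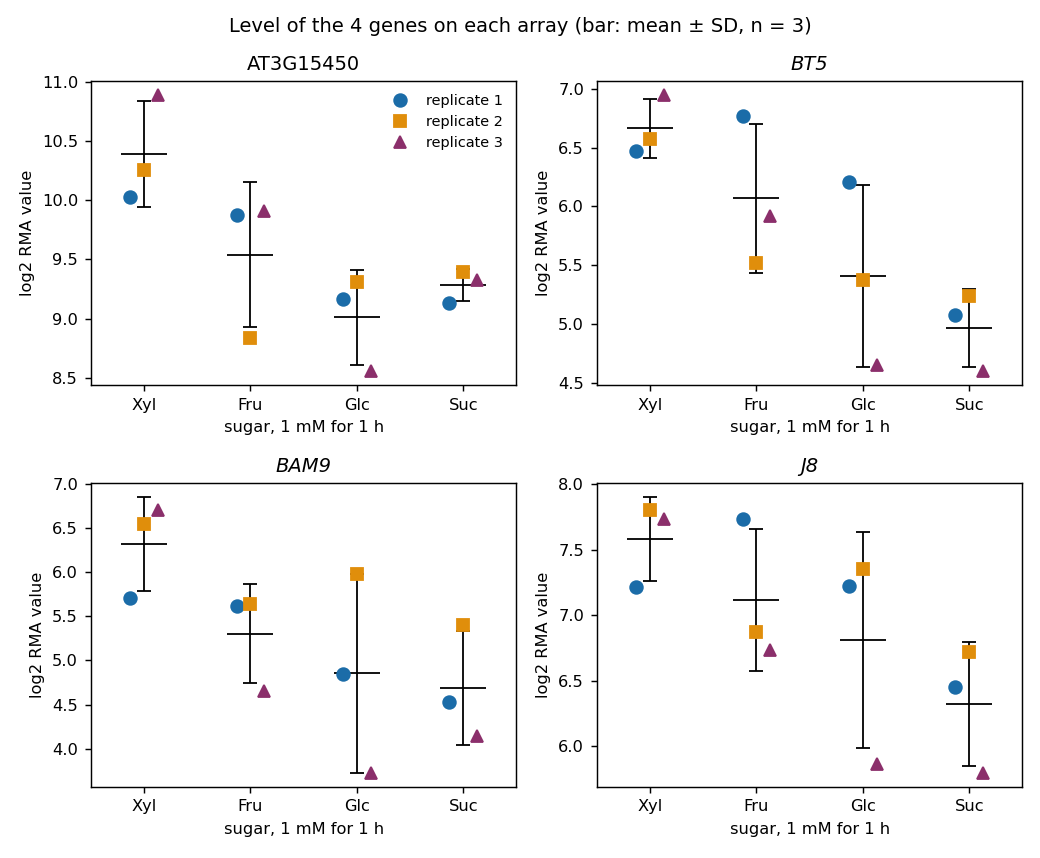
Log2 RMA value (y axis, a separate range per gene) of AT3G15450, *BT5*, *BAM9* and *J8* on each of the 12 arrays, by sugar (x axis) and replicate (marker), with bars for mean ± SD (n = 3). The Suc arrays lie below all Xyl arrays for each gene, while the Fru and Glc arrays of *J8* overlap the Xyl arrays.

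The order of the means was Xyl, Fru, Glc, Suc from high to low for *BT5*, *BAM9* and *J8*, and Xyl, Fru, Suc, Glc for AT3G15450. Arrays of neighbouring groups in these orders overlapped in all cases but 2, Fru against Xyl for AT3G15450 and for *BAM9*. Suc and Glc, the lowest pair in each gene, differed by 0.27 (AT3G15450), 0.44 (*BT5*), 0.16 (*BAM9*) and 0.49 (*J8*) on the log2 scale, at most 1.15 times the SE of the difference, or 1.68 times with the replicate block. In *BT5* and *J8* the Suc value was the lower of both in 3 of 3 replicates.

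Set against the Xyl array of the same replicate, 33 of 36 sugar values lay below it, and 21 of 24 in replicates 1 and 2. The 3 exceptions were all in replicate 1, where *BT5* with Fru was 0.29 above, *J8* with Fru 0.52 above and *J8* with Glc 0.003 above. The 3 sugars of a replicate are set against the same Xyl array, and the genes were chosen by such differences. Nothing is therefore read from the number of values below Xyl. Replicate 1 also had the lowest Xyl value for each of the 4 genes. Averaged over the 3 sugars, the difference of *BT5* was −0.46, −1.20 and −1.89 in replicates 1, 2 and 3. The same average was −0.71, −0.87 and −2.54 for *BAM9*, −0.08, −0.82 and −1.60 for *J8*, and −0.64, −1.07 and −1.62 for AT3G15450. For each gene it was most negative in replicate 3, the replicate that stood apart over the whole array, and least negative in replicate 1. The part of these replicate differences in the group means was not tested.

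Without replicate 3, the differences kept their sign and were smaller. With Suc they were −0.88 for AT3G15450, −1.37 for *BT5*, −1.16 for *BAM9* and −0.93 for *J8*. With Glc they were −0.90, −0.74, −0.71 and −0.23 in the same order of genes, and with Fru −0.79, −0.38, −0.50 and −0.20. The difference of *J8* with Glc was thus more than halved, as were those of *J8* with Fru and of *BAM9* with Fru and Glc.

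**Figure D2:**
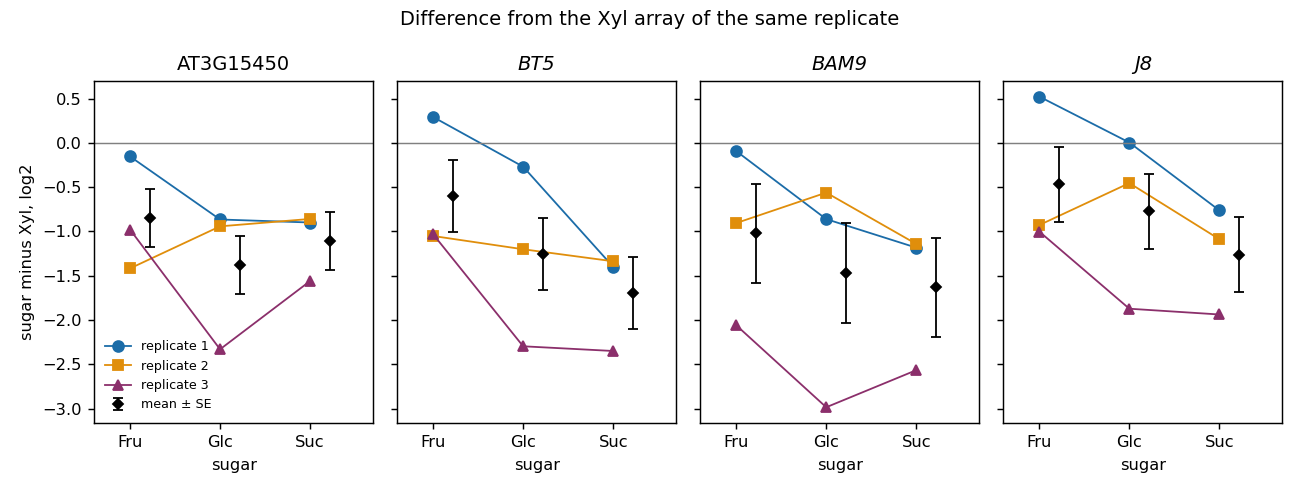
Difference in log2 RMA value between each sugar and the Xyl array of the same replicate (y axis) for the 4 genes, with 1 line per replicate and, in black, the mean ± SE from limma without the block. Replicate 3 has the most negative value in 10 of the 12 gene and sugar pairs, and 3 values of replicate 1 lie above 0.

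The choice of the genes rested on Xyl and on 1 sugar for each gene, so a comparison of the other sugars with each other holds neither. Since the placing of a gene also took into account that other sugars did not pass, these comparisons are not wholly free of it. No comparison of this kind passed. The log2 difference Glc minus Fru was −0.66 for *BT5* (95% confidence interval −1.56 to 0.24, lower in 3 of 3 replicates), −0.45 for *BAM9* (−1.70 to 0.80, 2 of 3) and −0.31 for *J8* (−1.25 to 0.64, 2 of 3). For AT3G15450 the difference Suc minus Fru was −0.26 (−0.98 to 0.47, lower in 2 of 3). The adjusted p = 1 for each in limma with Benjamini-Hochberg adjustment over all 22746 probe sets, of which 0% passed an adjusted p of 0.05 in either comparison. At an unadjusted p under 0.05 there were 377 probe sets between Glc and Fru and 402 between Suc and Fru, and with the replicate block 2040 and 2578. These intervals, from the fit without the block, leave room for differences of more than 1 (log2) in *BT5*, *BAM9* and *J8*. The data thus do not show that Glc and Fru acted alike. In the fit with the block, the interval of *BT5* narrowed to −1.30 to −0.02 and no longer held 0, with an adjusted p = 0.544 in limma. The intervals of *BAM9* (−1.19 to 0.29), *J8* (−0.93 to 0.32) and AT3G15450 (−0.86 to 0.35) still held 0. That of *J8* no longer reached a difference of 1. With the block too, 0% of all probe sets passed in either comparison. Single arrays moved these values. Without replicate 3 of Glc the Glc minus Fru difference was 0.11 in *BAM9*, 0.17 in *J8* and −0.28 in *BT5*, and without replicate 1 of Glc it was −1.06 in *BT5*.

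The level of the 4 genes between replicates was tested by a limma F-test with sugar as covariate. The choice of the genes did not use this level itself, but rested on p-values that depend on the spread between replicates. *BAM9* differed between replicates (adjusted p = 0.0191 in limma), with means over the 4 sugars of 5.18, 5.89 and 4.81 in replicates 1, 2 and 3. Replicate 3 minus replicate 2 was −1.08 (SE 0.30), a gap the size of its Fru to Xyl difference. This gap differed by sugar. Replicate 3 lay above replicate 2 with Xyl (6.71 against 6.54). It lay below replicate 2 with Fru (4.65 against 5.64), Glc (3.73 against 5.98) and Suc (4.14 against 5.40). The F-test assumes the same gap with every sugar, so it cannot separate a shift in level from a larger sugar difference in replicate 3. The adjusted p rose to 0.0949 without replicate 2 of Glc and to 0.0690 without replicate 2 of Suc. *J8* had means of 7.16, 7.19 and 6.53 (adjusted p = 0.0638), *BT5* of 6.13, 5.67 and 5.53 (adjusted p = 0.136) and AT3G15450 of 9.55, 9.45 and 9.67 (adjusted p = 0.735), all in limma. Thus 1 of the 4 genes passed, beside 54.2% of all probe sets. Since the choice of the genes can lower their count, nothing is read from its distance to the share of all probe sets.

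Over the 12 arrays, the sum of squares of each gene was split into the part between sugars, the part between replicates and the remainder. Sugar accounted for 68.2% in AT3G15450, 67.9% in *BT5*, 51.4% in *BAM9* and 49.3% in *J8*, against a median of 14.2% over all probe sets, a share that the choice of the genes raises. Replicate accounted for 2.07%, 10.7%, 25.7% and 21.3% in the same order, against a median of 54.0%. The 3 shares of a gene make up its whole, so the choice of the genes also lowers the replicate share, and nothing is read from its distance to the median.

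**Figure D3:**
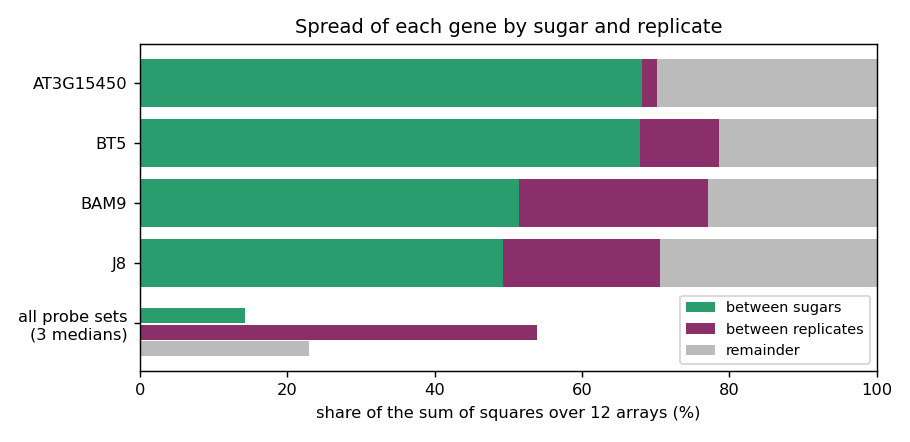
Share of the sum of squares over 12 arrays (x axis, %) between sugars, between replicates and in the remainder for each of the 4 genes, with the 3 medians over all 22746 probe sets below. The share between sugars runs from 49.3% (*J8*) to 68.2% (AT3G15450), and the share between replicates from 2.07% (AT3G15450) to 25.7% (*BAM9*).

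After the mean of each replicate was subtracted, the 4 genes varied together over the 12 arrays, with Pearson correlations from 0.855 (AT3G15450 and *J8*) to 0.962 (*BT5* and *J8*). These are a description, since the arrays share culture and normalization and the genes were chosen by a like pattern. Of 13435 other probe sets that name 1 gene, the most similar to *BT5* were AT2G36950 (r = 0.968), AT1G02080 (0.939) and AT2G20460 (0.935). AT2G36950 and AT2G20460 were also among the 3 most similar to *J8* (0.950 and 0.939), after AT2G24550 (0.952). The nearest to AT3G15450 were AT5G66560 (0.966), AT5G01210 (0.964) and *SEC10* (0.955), which encodes a subunit of the exocyst. The nearest to *BAM9* were AT1G72820 (0.947), AT2G37050 (0.941) and AT3G29240 (0.940). AT5G01210 differed from Xyl by −0.94 with Fru and −1.26 with Glc (log2, SE 0.36), and AT2G36950 by −0.35 with Fru, −0.54 with Glc and −0.76 with Suc (SE 0.22). AT5G01210, AT2G36950 and AT1G02080 are in the table of 290 genes that was selected on these arrays.

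Of 30 other genes listed for carbon starvation, 10 had a named probe set. For 5 of these the platform's annotation gave the name, and they are not in the table selected on these arrays. The other 5 were named by their ratios only, so they entered through that table and had to differ from Xyl with at least 1 sugar.

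Of the 5 genes outside the table, 0 passed the unadjusted threshold of 0.002 with any sugar, with or without the replicate block. Over all probe sets, 0.044%, 0.0264% and 0.0659% were lower with Fru, Glc and Suc at this threshold (0.664%, 0.695% and 0.778% with the block). These 5 genes had not passed 0.002 in the study's own test on these arrays, so nothing is read from the 0. All estimates of the 5 genes lay below Xyl. Their median log2 difference was −0.33, −0.43 and −0.31 with Fru, Glc and Suc, beside 0.00, 0.01 and 0.00 over all probe sets. At an unadjusted p under 0.05 in limma, 0 were lower with Fru, 2 with Glc and 0 with Suc (1.14%, 1.02% and 1.38% of all probe sets). In the fit with the block it was 1, 4 and 2 (6.84%, 6.32% and 6.16% of all probe sets), with an adjusted p of 0.178 or more in limma. *AKINβ1*, a β subunit of SnRK1 itself, differed by −0.42, −0.78 and −0.73 with Fru, Glc and Suc (SE 0.34, or 0.21 with the block). *bZIP53*, a partner of other bZIP factors in amino acid breakdown, differed by −0.26, −0.49 and −0.33 (SE 0.16, or 0.14 with the block). The enzymes of leucine breakdown had an SE that shrank most with the block, *MCCA* at −0.33, −0.40 and −0.31 (SE 0.63, or 0.16) and *IVD* at −0.33, −0.09 and −0.05 (SE 0.76, or 0.15). *ATG8E*, of the autophagosome, differed by −0.38, −0.43 and −0.04 (SE 0.23, or 0.20 with the block).

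The 5 genes of the table are a description, since a test against Xyl repeats their selection. *TPS9*, a class II trehalose-phosphate synthase, differed from Xyl by −0.84, −0.37 and −0.65 with Fru, Glc and Suc (log2, SE 0.14), and *bZIP63*, a transcription factor phosphorylated by SnRK1, by −0.70, −0.81 and −0.72 (SE 0.14). The signal of *TPS9* was low, with group means of 3.46 to 4.30 beside array medians of 4.70 to 4.84. *TPS8*, a relative of *TPS9*, differed by −0.71, −0.94 and −1.20 (SE 0.48, or 0.16 with the block). *CHYR1* (AT5G22920), a RING zinc-finger protein, differed by −0.95, −1.11 and −0.83 (SE 0.29, or 0.18), and *KMD4*, a Kelch-repeat F-box protein, by −0.31, −0.54 and −0.89 (SE 0.22, or 0.17). The group means of *KMD4* were 4.07 to 4.95, near or below the array medians. Below the threshold of 0.002 in limma, 2 lay lower with Fru, 1 with Glc and 2 with Suc (0.044%, 0.0264% and 0.0659% of all probe sets), all *TPS9* or *bZIP63*, and 4, 3 and 5 with the block (0.664%, 0.695% and 0.778%). Nothing is read from these counts. On the arrays without replicate 3 the counts at 0.002 over all 10 carbon-starvation genes were 1, 1 and 0 without the block.

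The 4 relatives of AT3G15450 with YGL and LRDR motifs did not pass the threshold of 0.002 with any sugar, with or without the block. They are outside the table selected on these arrays at that threshold, so nothing is read from this. At an unadjusted p under 0.05 in limma 0 were lower (1.14%, 1.02% and 1.38% of all probe sets with Fru, Glc and Suc). With the block 1 was lower with Fru (*AILP1*), 1 with Glc (AT4G27450) and 0 with Suc (6.84%, 6.32% and 6.16%). With 4 genes, these counts are too small to read. AT4G27450 differed from Xyl by −0.28, −0.44 and 0.01 with Fru, Glc and Suc (log2, SE 0.40), and AT5G43830 by −0.04, −0.14 and −0.03 (SE 0.34). *AILP1* (AT5G19140) differed by −0.26, −0.20 and −0.16 (SE 0.27), and AT3G22850 by 0.13, 0.09 and 0.03 (SE 0.33). The differences of AT3G15450, chosen for them, ran from −0.85 to −1.38. Of 6 genes listed as induced by sugar, 2 had a named probe set. Of these 0 passed, also at an unadjusted p under 0.05 in limma with or without the block. *APL3*, a subunit of ADP-glucose pyrophosphorylase, differed by 0.04, 0.16 and −0.08, and *DFR*, of anthocyanin synthesis, by 0.03, 0.00 and 0.04. Both gave little signal, with group means of 3.03 to 3.27 (*APL3*) and 2.87 to 2.91 (*DFR*) beside array medians of 4.70 to 4.84. A lack of response is therefore not read from them. The relatives of *BT5*, *BAM9* and *J8* had no named probe set and were not analysed here.

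**Figure D4:**
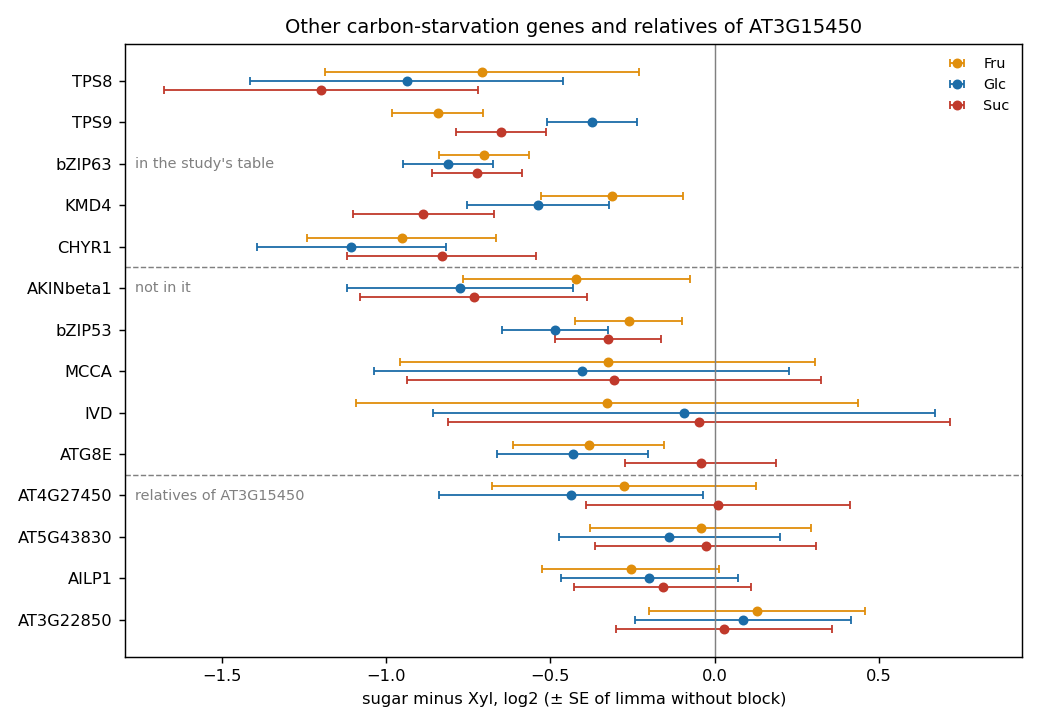
Log2 difference from Xyl (x axis, ± SE of limma without the block) with Fru, Glc and Suc for the 10 other carbon-starvation genes and the 4 relatives of AT3G15450. All carbon-starvation genes lie left of 0, with a median of −0.83 with Suc for the 5 that entered through the table selected on these arrays and −0.31 for the other 5, and AT3G22850 lies right of 0.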

How the data were processed

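RNA of 12 samples was hybridised to ATH1 arrays, and the authors deposited log2 RMA values of each probe set. In the processing notes of the submitters, the tools are Affymetrix Expression Console, RMA and limma, with versions not given in the sources used here. A second deposited table, with the same values and the authors' own log2 fold changes, p-values and log odds for 6 comparisons, was not used. Groups and replicate numbers were taken from the sample labels, and 0 value columns were left unassigned.

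From the log2 values, without 64 control probe sets, 22746 probe sets were fitted in limma 3.58.1 (R 4.3.3) over the 4 groups (8 residual degrees of freedom, or 6 with the replicate number as a block). Calls were made at an unadjusted p of 0.002 and at 0.05 after Benjamini-Hochberg adjustment. The study's methods set the threshold of 0.002 for Student's t-test, whereas here it was applied to limma, so the calls are not those of the study. The deviation of an array from its group mean correlated with that of its partner in all 18 same-number pairs (r between 0.772 and 0.938), and the methods say that homogeneous cells were shared out between flasks. P-values measure the spread between these samples only. Arrays give no read depth. The fit was tested on simulated data.

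The 4 genes and all gene lists were chosen with earlier results of these data known. Named genes are the 4 genes, each listed gene with a probe set and the 3 most correlated probe sets of each of the 4 genes. Gene names come from the platform's annotation, updated through TAIR10.1, and from ratios matched within 1e-05. Of 60 listed genes, 16 had a named probe set. The 4 BT, 8 β-amylase and 3 plastid J-protein relatives, 3 leaf markers and 4 markers of dividing cells had none. Promoter motifs were not searched, since no sequences were used here. Coordinates are left out because the array files state no assembly.

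Alternatives were the block, median centring, a second quantile normalization, linear means, a filter on dim probe sets (mean above the median), Student's and Welch's tests, a trended and robust variance, fits of 6 arrays, no sugar term and each array left out. The fits without replicate 3 were chosen after seeing the data.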

Additional observations from a re-analysis of the deposited data

How the results depend on the processing

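All 216 alternative values of the 12 sugar to Xyl differences of the 4 genes stayed negative (−2.04 to −0.20, log2). Many of them repeat the main estimate. The block, the filter on dim probe sets and the loss of an array outside the 2 compared groups cannot change it. The genes were also chosen by these differences, so nothing is read from the constant sign. Without 1 array, the Glc minus Fru difference of *BT5* ran from −1.06 to −0.28 and the Suc minus Fru difference of AT3G15450 from −0.61 to −0.07. The Glc minus Fru difference turned positive in some fits without 1 array. It ran from −1.02 to 0.11 in *BAM9* (above 0 without replicate 3 of Glc) and from −0.58 to 0.17 in *J8* (0.17 without replicate 3 of Glc, 0.006 without replicate 1 of Fru). The replicate block changed no call in these tests. For the level between replicates, the limma adjusted p without 1 array ran from 0.0208 (without replicate 1 of Xyl) to 0.479 for *BT5*, from 0.000122 to 0.0949 for *BAM9* and from 0.00583 (without replicate 3 of Xyl) to 0.316 for *J8*. It was also under 0.05 for *BT5* without replicate 3 of Xyl, and for *J8* without replicate 1 of Xyl or replicate 2 of Fru. For *BAM9* it was 0.104 with a trended and robust variance and 0.165 with no sugar term.

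Of the 10 carbon-starvation genes, 4, 3 and 5 were lower with Fru, Glc and Suc with the replicate block (2, 1 and 2 without). The shares of all probe sets were 0.664%, 0.695% and 0.778% with the block and 0.044%, 0.0264% and 0.0659% without. In both fits, all of these were among the 5 genes of the table selected on these arrays, so nothing is read from the counts. Student's t-test gave 1, 0 and 0, the filter on dim probe sets 0 in each, with fewer genes tested, and replicates 1 and 2 alone 1, 1 and 0. Without 1 array the count ran from 1 to 2 with Fru and with Glc and from 1 to 3 with Suc. The causes were not tested. No relative of AT3G15450 passed under any alternative run, and since all are outside the table selected on these arrays, nothing is read from this. The precision rests on 3 arrays per sugar.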
